A study of Drosophila melanogaster with 6 samples.

Results

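The genes described here are 10 genes that fly neurons use to stay neurons, to carry impulses and to release transmitter: elav, futsch, para, nSyb, Syt1, Syx1A, brp, ChAT, VAChT and VGlut. They were chosen by name, with earlier results of these data known, and every probe set annotated to one of them alone was taken. This gave 14 probe sets for 8 genes, out of 18769 probe sets on the array. The 4 probe sets of brp, 3 of futsch and 2 of VGlut are all shown. Syt1, the synaptotagmin that senses calcium, and Syx1A, the syntaxin of the presynaptic membrane, have no probe set of their own in the tables used here and were not analysed here. Whole male flies of strain W1118, labelled wild type and a laboratory strain with a mutation in the eye colour gene white, were 30 days old and had been kept on food with lithocholic acid (LCA) at 50 µmol/l or on control food. LCA is a bile acid made by gut bacteria of vertebrates. Each of the 3 LCA arrays and 3 control arrays carried biotin-labelled cRNA from a pool of 10 flies, hybridised to an Affymetrix fly expression array. Whether pools of 1 diet were raised in separate vials is not given. The p-values below rest on the spread among pools, and part of that spread may be technical. If pools of a diet shared a vial, the spread leaves out differences between vials, and the p-values may be too small.

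Neurons pass signals at synapses, where vesicles loaded with transmitter fuse with the presynaptic membrane. Vesicle transporters fill the vesicles, a scaffold called the active zone holds them at the release site, and SNARE proteins such as nSyb on the vesicle and Syx1A on the membrane drive fusion when calcium enters. Acetylcholine is the main excitatory transmitter of the insect brain, and glutamate is the transmitter of fly motor neurons. In RNA of whole flies these transcripts come from the brain, the ventral nerve cord and peripheral neurons. Fewer neurons and less RNA per neuron cannot be told apart in such bulk samples.

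Most of the neuronal genes read higher in LCA flies by a small amount, and none passed the threshold. With the brightest probe set standing for each gene, all 8 genes had a higher mean in LCA arrays, by 0.01 to 0.43 on the log2 scale, with a median of 0.30, although the smallest of these differences, that of VGlut, turned negative when each array was centred on its median. The median over all 11981 genes that have a probe set of their own was −0.002 on the same scale, and 49.7% of those genes were higher in LCA arrays. Among the 14 probe sets, 11 were higher, where 47.9% of all probe sets were, and 3 lower, with a median log2 difference of 0.21 against −0.01 over all 18769 probe sets. limma placed 0 of the 14, and 0.0% of all probe sets, under a Benjamini-Hochberg adjusted p of 0.05. The smallest adjusted p in the set was 0.146, for nSyb. At an unadjusted p under 0.05, limma counted 5 of the 14 probe sets as higher, where 7.53% of all probe sets were, and 0 as lower, where 8.59% of all were. The arrays of both diets did not overlap in 3 of the 14, all higher in LCA, against a background of 9.38% of all probe sets. Since the genes are neuronal genes read from the same 6 pools, they are not separate observations of the diet. They were also chosen with earlier results of these data known, so the counts are a description.

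**Figure D1:**
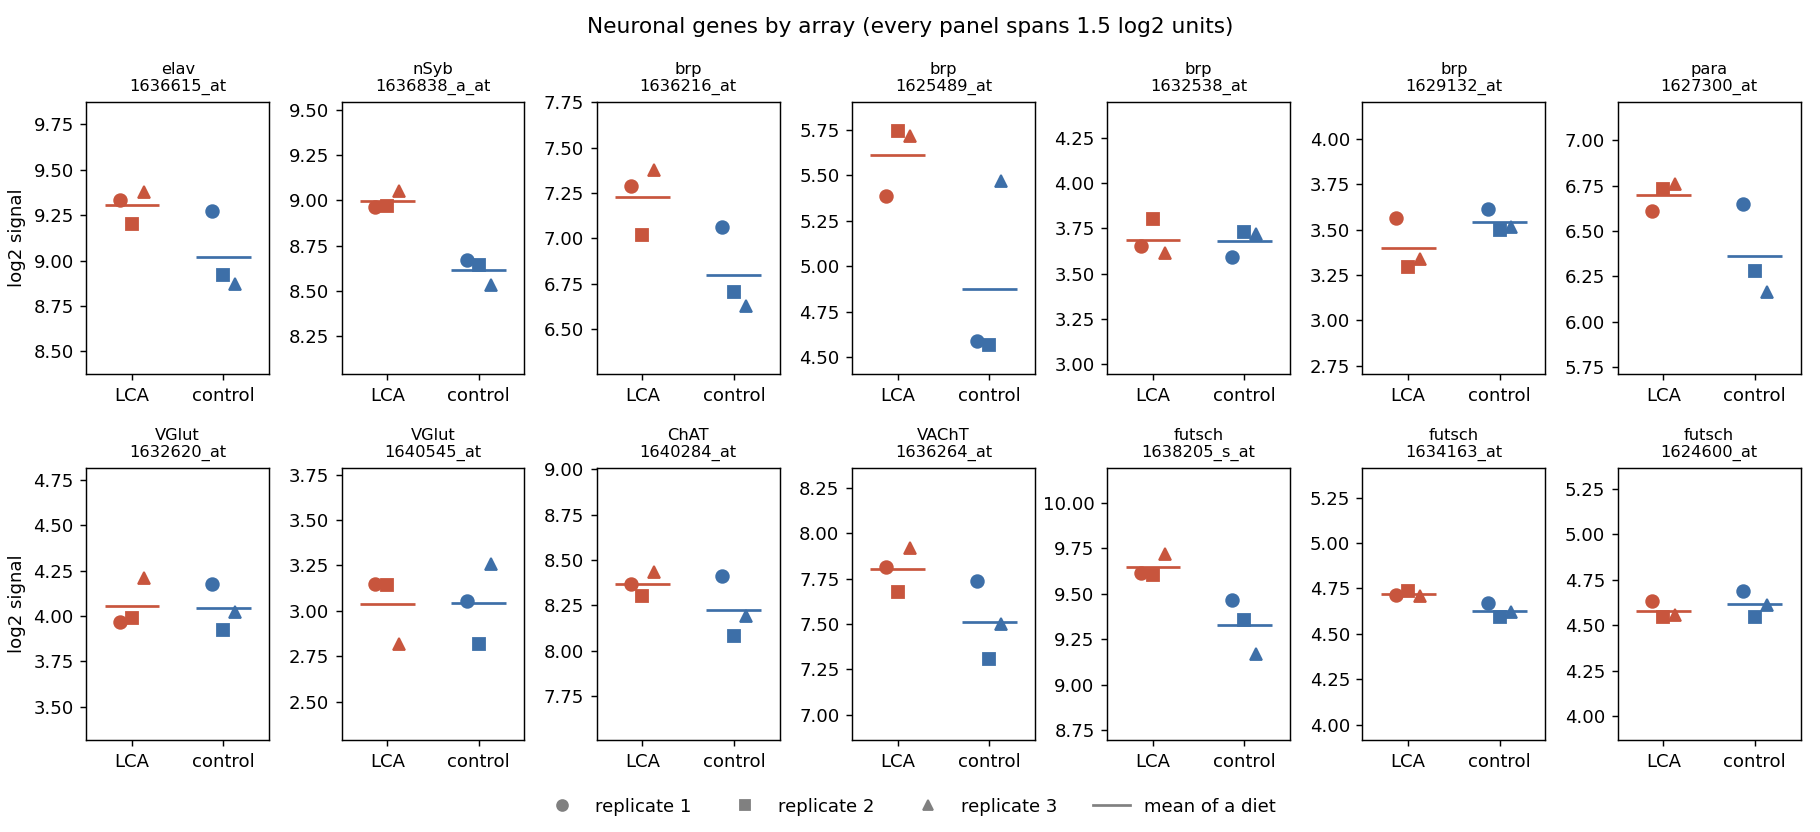
Log2 signal (vertical axis) of the 14 probe sets in each of 6 arrays, LCA arrays on the left and control arrays on the right of each panel; markers give the replicate number and bars the mean of 3 arrays. nSyb and 2 of the futsch probe sets have all LCA arrays above all control arrays. Control replicate 1 lies among the LCA arrays in elav, para, ChAT, VAChT, VGlut (each probe set) and brp 1636216_at.

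elav encodes an RNA-binding protein of the neuronal nucleus and is the standard marker of fly neurons. Its log2 signal was 9.33, 9.20 and 9.38 in LCA replicates 1 to 3, against 9.27, 8.92 and 8.87 in control replicates 1 to 3. Control replicate 1 lay above LCA replicate 2, so the diets overlapped, while the other two control arrays lay below every LCA array. The log2 difference was 0.28 ± 0.13 (LCA minus control, SE, 3 arrays per diet), with limma's adjusted p = 0.318.

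futsch encodes a microtubule-associated protein of axons and motor terminals, related to mammalian MAP1B. The probe set 1638205_s_at read 9.61, 9.60 and 9.72 in LCA arrays, against 9.46, 9.36 and 9.17 in control arrays. All LCA arrays lay above all control arrays, and the log2 difference was 0.32 ± 0.10 (SE), a 1.25-fold higher signal (limma's adjusted p = 0.240). The ending s_at marks probe sets whose probes may match several transcripts, although the annotation gives this one to futsch alone. The other 2 probe sets of futsch were under the median signal of the array's probe sets. One of them, 1634163_at, averaged 4.72 ± 0.01 in LCA arrays and 4.63 ± 0.04 in control arrays (SD, n = 3 each), again without overlap, at a log2 difference of 0.09 ± 0.07 (SE). The last, 1624600_at, averaged 4.58 ± 0.05 in LCA arrays and 4.61 ± 0.07 in control arrays (SD, n = 3 each), with overlap.

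para encodes the voltage-gated sodium channel that carries the action potential in fly axons. Its log2 signal was 6.61, 6.73 and 6.76 in LCA arrays, against 6.65, 6.28 and 6.16 in control arrays. Control replicate 1 again stood with the LCA arrays, above LCA replicate 1, and the other two control arrays were lower than all of them. The log2 difference was 0.34 ± 0.14 (SE; limma's adjusted p = 0.299).

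nSyb, neuronal synaptobrevin, is the SNARE protein of the synaptic vesicle and the member that the diets separated by the widest margin relative to its error. It read 8.96, 8.97 and 9.05 in LCA arrays, against 8.67, 8.65 and 8.54 in control arrays. The groups did not overlap, and each diet's arrays were close together. The log2 difference was 0.38 ± 0.08 (SE), a 1.30-fold higher signal in LCA flies, with a 95% interval of 0.19 to 0.57. limma's p for nSyb was 0.00232 before and 0.146 after adjustment, and it ranked 297 by p among 18769 probe sets.

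brp, Bruchpilot, is the main scaffold protein of the fly active zone, related to mammalian ELKS, and has 4 probe sets. The brightest, 1636216_at, read 7.29, 7.02 and 7.38 in LCA arrays, against 7.06, 6.70 and 6.63 in control arrays. Control replicate 1 lay just above LCA replicate 2, and the log2 difference was 0.43 ± 0.15 (SE; limma's adjusted p = 0.263). A second, 1625489_at, read 5.39, 5.74 and 5.72 in LCA arrays, against 4.59, 4.57 and 5.47 in control arrays. Here control replicate 3, not replicate 1, was the array that overlapped with LCA. Its log2 difference of 0.74 ± 0.25 (SE), 1.67-fold, exceeded those of the other 13 probe sets and had the widest error among them (limma's adjusted p = 0.258).

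The remaining 2 probe sets of brp had low signals. 1632538_at averaged 3.69 ± 0.10 in LCA arrays and 3.68 ± 0.07 in control arrays (SD, n = 3 each), and 1629132_at averaged 3.40 ± 0.14 in LCA arrays and 3.54 ± 0.06 in control arrays (SD, n = 3 each). The diets overlapped in both. 1629132_at was under the 25th percentile of all probe sets, 3.64, and 1632538_at was just above it. Signals of different probe sets cannot be compared as levels. Which transcripts or exons each of them reads is not given in the tables used here.

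ChAT, choline acetyltransferase, makes acetylcholine, and VAChT, the vesicular acetylcholine transporter, loads it into vesicles. The 2 genes form one locus on chromosome arm 3R, where the span of VAChT lies within that of ChAT and shares an end with it in assembly Release 6 plus ISO1 MT. ChAT read 8.37, 8.30 and 8.44 in LCA arrays, against 8.41, 8.08 and 8.19 in control arrays. VAChT read 7.82, 7.67 and 7.92 in LCA arrays, against 7.74, 7.30 and 7.50 in control arrays. In both genes LCA replicate 3 was the highest array and control replicates 2 and 3 were the lowest, while control replicate 1 lay within or above part of the LCA arrays. The log2 difference was 0.14 ± 0.11 (SE; limma's adjusted p = 0.528) for ChAT, with a 95% interval of −0.11 to 0.39. It was 0.29 ± 0.13 (SE; limma's adjusted p = 0.323) for VAChT, with an interval of −0.02 to 0.60.

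VGlut, the vesicular glutamate transporter and the marker of glutamatergic neurons, was the member with differences nearest 0. Its brighter probe set, 1632620_at, read 3.97, 3.99 and 4.21 in LCA arrays, against 4.18, 3.92 and 4.02 in control arrays. The diets overlapped, and the log2 difference was 0.01 ± 0.11 (SE; limma's adjusted p = 0.965), with a 95% interval of −0.24 to 0.27. The other probe set, 1640545_at, had a difference of −0.01 ± 0.15 (SE), and its sign turned under quantile normalization, as that of 1632620_at did under median centring. Mean signals over all arrays were low, at 4.05 and 3.04, and 1640545_at was under the 25th percentile.

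How clearly the diets separated depended on control replicate 1. It was the highest control array in all 8 genes at their brightest probe set, by 0.08 (nSyb) to 0.42 (para) over the mean of the other two control arrays. LCA replicate 3 was the highest LCA array in all 8. Within each diet, the same order of arrays, at smaller size, was present over all probe sets. Their median, relative to each probe set's mean, was 0.06 in control replicate 1, against −0.003 and −0.02 in control replicates 2 and 3. It was 0.02 in LCA replicate 3, against 0.003 and −0.02 in LCA replicates 1 and 2. Between diets the order differed. On this measure control replicate 1 lay above every LCA array, which it did not in the mean profile of the 8 genes. By the plain median signal of an array, control replicate 1 was the lowest, at 6.31, and LCA replicate 2 the highest, at 6.39. The mean profile of the 8 genes, with every gene set to 0 on average, stood at 0.12, 0.06 and 0.23 in LCA replicates 1 to 3, against 0.05, −0.22 and −0.24 in control replicates 1 to 3. Control replicate 1 also stood apart over all probe sets, at −42.7 on the first principal component (54.2% of the variance), where the other 5 arrays lay between −15.4 and 21.4.

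Without control replicate 1, limma counted 7 of the 14 probe sets as higher at an unadjusted p under 0.05, where 7.67% of all probe sets were. The LCA arrays then lay above both remaining control arrays in 8 of the 14, where 17.0% of all probe sets did. Control replicate 1 was the highest control array in all 8 genes at their brightest probe set. Leaving it out therefore had to raise those differences, and the counts without it are no further support for a difference. limma still placed 0 of the 14 under the adjusted threshold, and the median log2 difference was 0.31. para then differed by 0.48 ± 0.09, elav by 0.41 ± 0.09 and VAChT by 0.40 ± 0.11 (SE, 3 LCA against 2 control arrays). The second probe set of brp, 1625489_at, went the other way, with a smaller difference of 0.60 ± 0.26 (SE; limma's unadjusted p = 0.058, against 0.0213 with all arrays). Without LCA replicate 3 the count at an unadjusted p under 0.05 was 1 of 14 (3.03% of all probe sets), and without control replicate 2 it was 2 of 14 (3.43%). It was 3 of 14 without LCA replicate 1 (5.6%), LCA replicate 2 (4.05%) or control replicate 3 (14.0%).

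**Figure D2:**
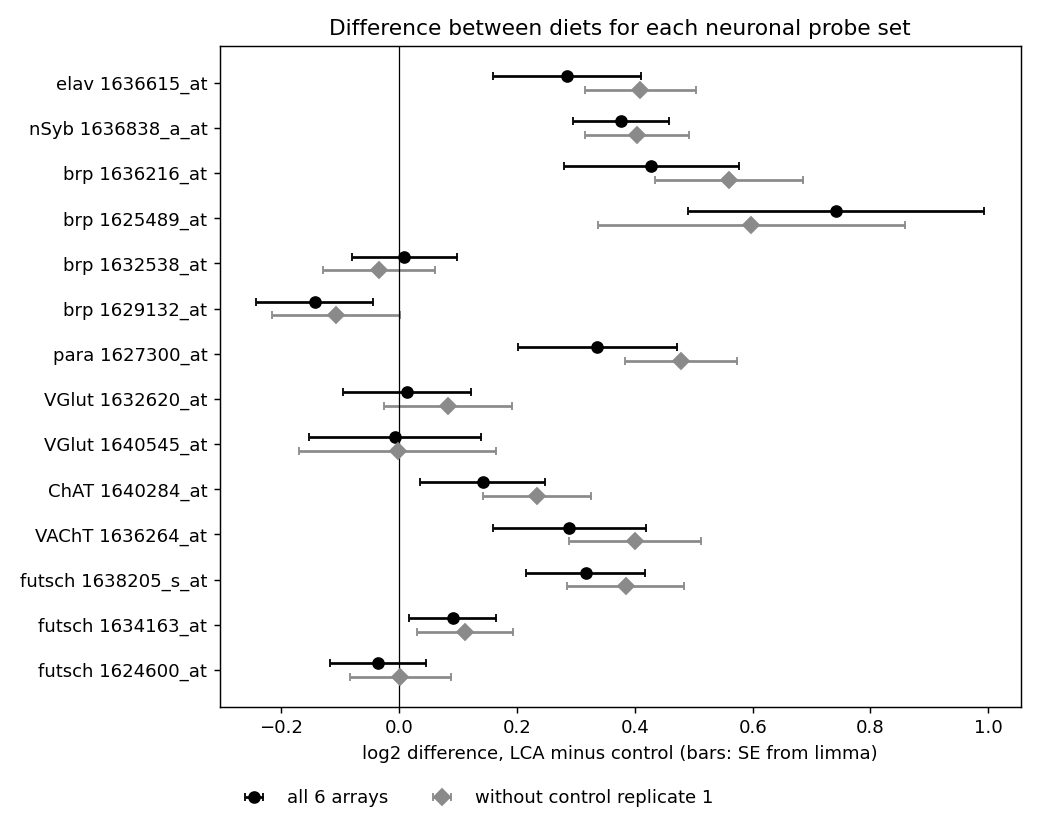
Log2 difference, LCA minus control, of each neuronal probe set (horizontal axis) with limma's SE as bars; circles use all 6 arrays and diamonds leave out control replicate 1. The 2 probe sets of VGlut lie near 0 in both, and para differs by 0.48 without that array, against 0.34 with it.

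Other neuronal genes, taken from 6 lists that cover release, recycling, transmitter supply, receptors, channels and neuronal surface or RNA-binding proteins, lay on the same side. Of 108 measured genes outside the set, 87 were higher in LCA arrays and 21 lower, with a median log2 difference of 0.18. Over all 11981 genes 49.7% were higher. limma placed 0 of the 108 under the adjusted threshold, 19 (17.6%) were higher at an unadjusted p under 0.05 where 9.63% of all genes were, and 1 was lower where 10.5% of all genes were. The diets did not overlap in 24 genes higher in LCA (22.2%, where 11.2% of all genes did) and in 1 gene lower in LCA (0.926%), where 1792 of all 11981 genes did. Without control replicate 1, 53 of the 108 were higher at an unadjusted p under 0.05, where 9.02% of all genes were. The median signal of the 108, relative to each gene's mean, was 0.10 in that array, against −0.16 in control replicates 2 and 3. Leaving out control replicate 1 thus tends to raise their differences. The count of genes higher at that p was far lower with another array left out. It was 8 of 108 without control replicate 2 (4.32% of all genes) and 15 of 108 without control replicate 3 (18.9%). It was 11, 15 and 10 of 108 without LCA replicate 1, 2 and 3 (7.2%, 4.79% and 3.62% of all genes). The lists were chosen with earlier results of these arrays known, and their genes share the 6 pools, so these counts are a description.

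In the release machinery and active zone list, 16 of 19 measured genes were higher, with a median log2 difference of 0.20. The 3 with the smallest p were Sytalpha, a further synaptotagmin (0.40 ± 0.11, SE), Syngr, a vesicle membrane protein (0.32 ± 0.10), and Rbp, which ties calcium channels to the active zone (0.26 ± 0.11). Sytalpha read 5.95, 5.88 and 6.13 in LCA arrays, against 5.43, 5.70 and 5.61 in control arrays, without overlap. Among 8 genes of vesicle endocytosis, which brings membrane back after release, 7 were higher, with a median of 0.15 and 0 at an unadjusted p under 0.05, where 9.63% of all genes were. Dap160, an endocytic scaffold, led that list at 0.17 ± 0.08 (SE), followed by EndoA, an endophilin (0.17 ± 0.11), and Eps-15 (0.13 ± 0.08).

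Of 16 genes that make or carry transmitters, 13 were higher, with a median log2 difference of 0.17. Those with the smallest p were Tdc2, the neuronal tyrosine decarboxylase of octopamine and tyramine synthesis (0.26 ± 0.08, SE), VGAT, the vesicular GABA transporter (0.33 ± 0.11), and CarT, a carcinine transporter of photoreceptors (0.32 ± 0.13). VGAT read 5.92, 6.16 and 6.28 in LCA arrays, against 5.81, 5.78 and 5.77 in control arrays. limma's adjusted p was 0.241 for VGAT and 0.221 for Tdc2. The rest of the list held smaller differences, down to 0.07 for ple, the tyrosine hydroxylase of dopamine synthesis, −0.01 for Gat, a GABA transporter, and −0.09 for Ddc, the dopa decarboxylase, genes named after their values were seen. One of the other 3 probe sets of Vmat, the vesicular monoamine transporter, was at −0.35, against 0.14 for its brightest.

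Of 27 transmitter receptors, 22 were higher, with a median log2 difference of 0.16 and 7 at an unadjusted p under 0.05, where 9.63% of all genes were. The leading ones were mAChR-B, a muscarinic acetylcholine receptor (0.39 ± 0.11, SE), nAChRalpha7, a nicotinic subunit (0.33 ± 0.10), and GABA-B-R3 (0.37 ± 0.12). Of 19 voltage-gated channels and partners, 16 were higher, with a median of 0.19. Hk, the beta subunit of the Shaker potassium channel (0.34 ± 0.09), Ca-alpha1D, a calcium channel (0.31 ± 0.12), and Sh, the Shaker channel (0.34 ± 0.14), came first by p. Of 19 RNA-binding, adhesion and axon proteins, 13 were higher, with a median of 0.20, led by Nlg2, a neuroligin (0.30 ± 0.08), fne, a relative of elav (0.37 ± 0.11), and nrv3, a neuronal sodium pump subunit (0.24 ± 0.08). Further probe sets of Hk lay between −0.08 and 0.10 and those of Sh between −0.03 and 0.44 on the same scale.

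**Figure D3:**
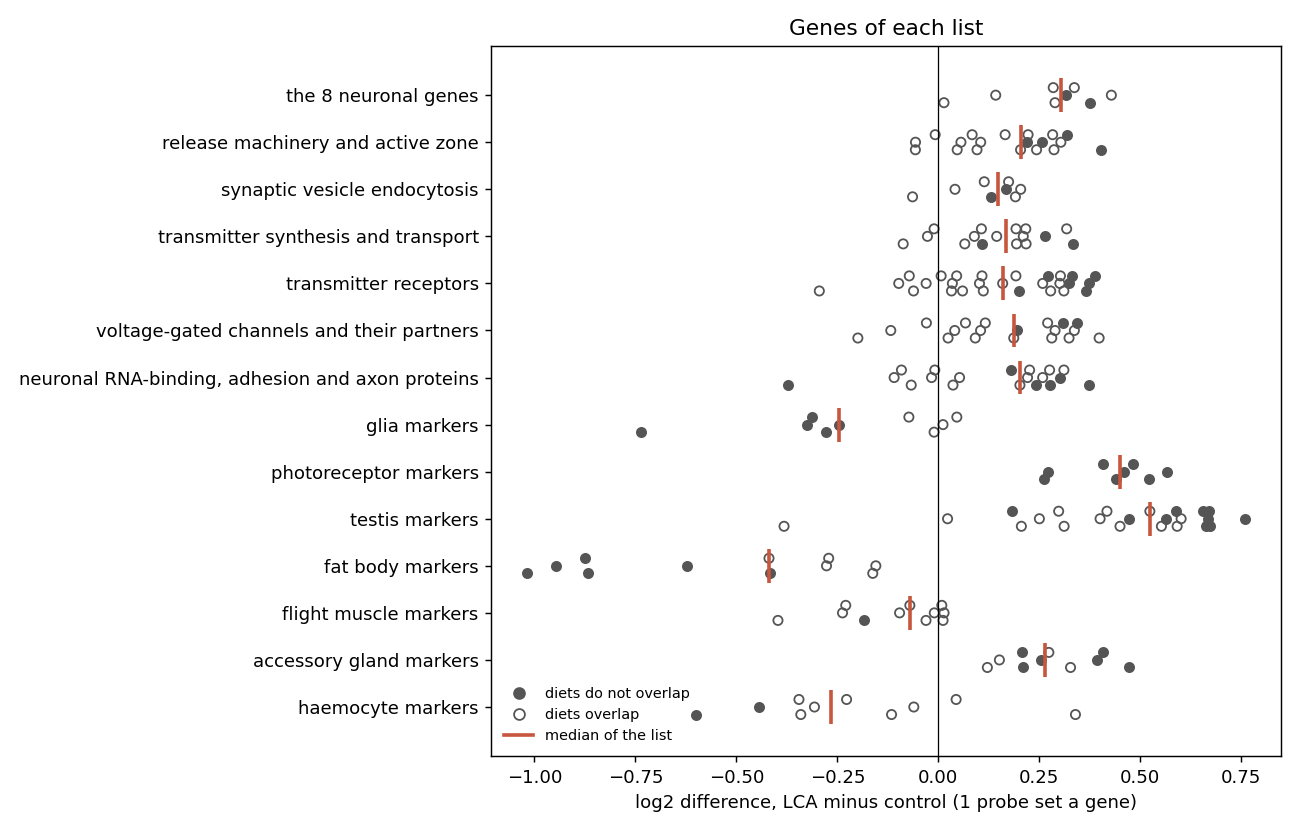
Log2 difference, LCA minus control, of every measured gene (1 probe set a gene, horizontal axis) in the neuronal lists and in lists of tissue markers; filled points mark genes whose diets do not overlap and red bars the list's median. The neuronal lists have medians of 0.15 to 0.30, the glia markers one of −0.25.

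Markers of other cell types differed between the diets in both directions. Glia markers, genes of the supporting cells of the same tissue, lay on the other side. Gat stands in this list and in the transmitter list. Of 9 measured genes, 7 were lower in LCA arrays and 2 higher, where 49.7% of all genes were higher. Their median log2 difference was −0.25. At an unadjusted p under 0.05, 3 were lower, where 10.5% of all genes were, and 0 passed limma's adjusted threshold. All LCA arrays lay below all control arrays in 5 of the 9, and in 1792 of all 11981 genes. repo, the transcription factor that defines glia and was singled out after its values were seen, averaged 7.03 ± 0.03 in LCA arrays and 7.27 ± 0.17 in control arrays (SD, n = 3 each), without overlap. The per-array median of the glia list, relative to each gene's mean, ran from −0.15 to −0.07 in LCA arrays and −0.09 to 0.26 in control arrays. For the 8 neuronal genes the same measure was 0.03 to 0.23 in LCA arrays and −0.28 to 0.09 in control arrays. Without control replicate 1 the medians were −0.17 for the glia list and 0.40 for the 8 neuronal genes.

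All 8 measured photoreceptor markers, genes of the light-sensing neurons of the eye, were higher in LCA arrays, with a median log2 difference of 0.45, no overlap in any and 8 at an unadjusted p under 0.05. Of all genes, 9.63% were higher at that p and 11.2% were higher without overlap. Control replicate 1 was the highest control array for this photoreceptor list too, at −0.15, with the other control arrays at −0.32 and −0.20. Unlike for the 8 neuronal genes, all control arrays lay below the LCA arrays, which stood at 0.15 to 0.24. Testis markers were higher in 22 of 23 genes, with a median of 0.52 (0.24 without control replicate 1), and 9 were so at an unadjusted p under 0.05, where 9.63% of all genes were. Accessory gland markers were higher in 10 of 10, with a median of 0.26 (0.40 without that array), 5 of them at an unadjusted p under 0.05, where 9.63% of all genes were. Fat body markers were lower in 11 of 11 (median −0.42), haemocyte markers in 8 of 10 (−0.27) and flight muscle markers in 8 of 11 (−0.07, and −0.0005 without control replicate 1). At an unadjusted p under 0.05, 6 fat body, 2 haemocyte and 0 flight muscle markers were lower, where 10.5% of all genes were. The fat body counts and median include Lst, which encodes the hormone limostatin and is not an established marker of fat body. Lst had the smallest p of that list, at −0.95 ± 0.09 (SE; limma's adjusted p = 0.0697). limma's adjusted threshold was passed by 0 genes of these lists.

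Control replicate 1 had a per-array median of −0.77 for the testis markers, the lowest of the 6 arrays, and was the highest control array for the 8 neuronal genes. LCA replicate 3 was the highest of the 6 arrays in both, at 0.34 for testis markers and 0.23 for the 8 neuronal genes. Control replicates 2 and 3 stood at −0.20 and 0.14 for testis markers, and at −0.23 and −0.28 for the 8 neuronal genes. Of the 7 lists of other cell types, only the glia and fat body lists held a gene under the 25th percentile of signal, 1 each. The part that the makeup of the pools had in the neuronal differences was not tested.

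A measure of RNA quality also differed between the diets. Control probe sets for the 3′ and the 5′ end of 3 transcripts (actin, GAPDH and eIF-4a) read how complete the labelled RNA was. Their mean log2 gap was 2.65, 2.60 and 2.70 in LCA replicates 1 to 3, against 2.56, 2.11 and 2.34 in control replicates 1 to 3. Control replicate 1, the highest control array for the neuronal genes, also had the highest gap of the control arrays. The gap averaged 2.65 ± 0.05 in LCA arrays and 2.34 ± 0.22 in control arrays (SD over 3 arrays per diet), without overlap, at a two-sided exact permutation p of 0.1, the lowest that 3 arrays per diet can give. Its part in the neuronal differences was not tested.

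**Figure D4:**
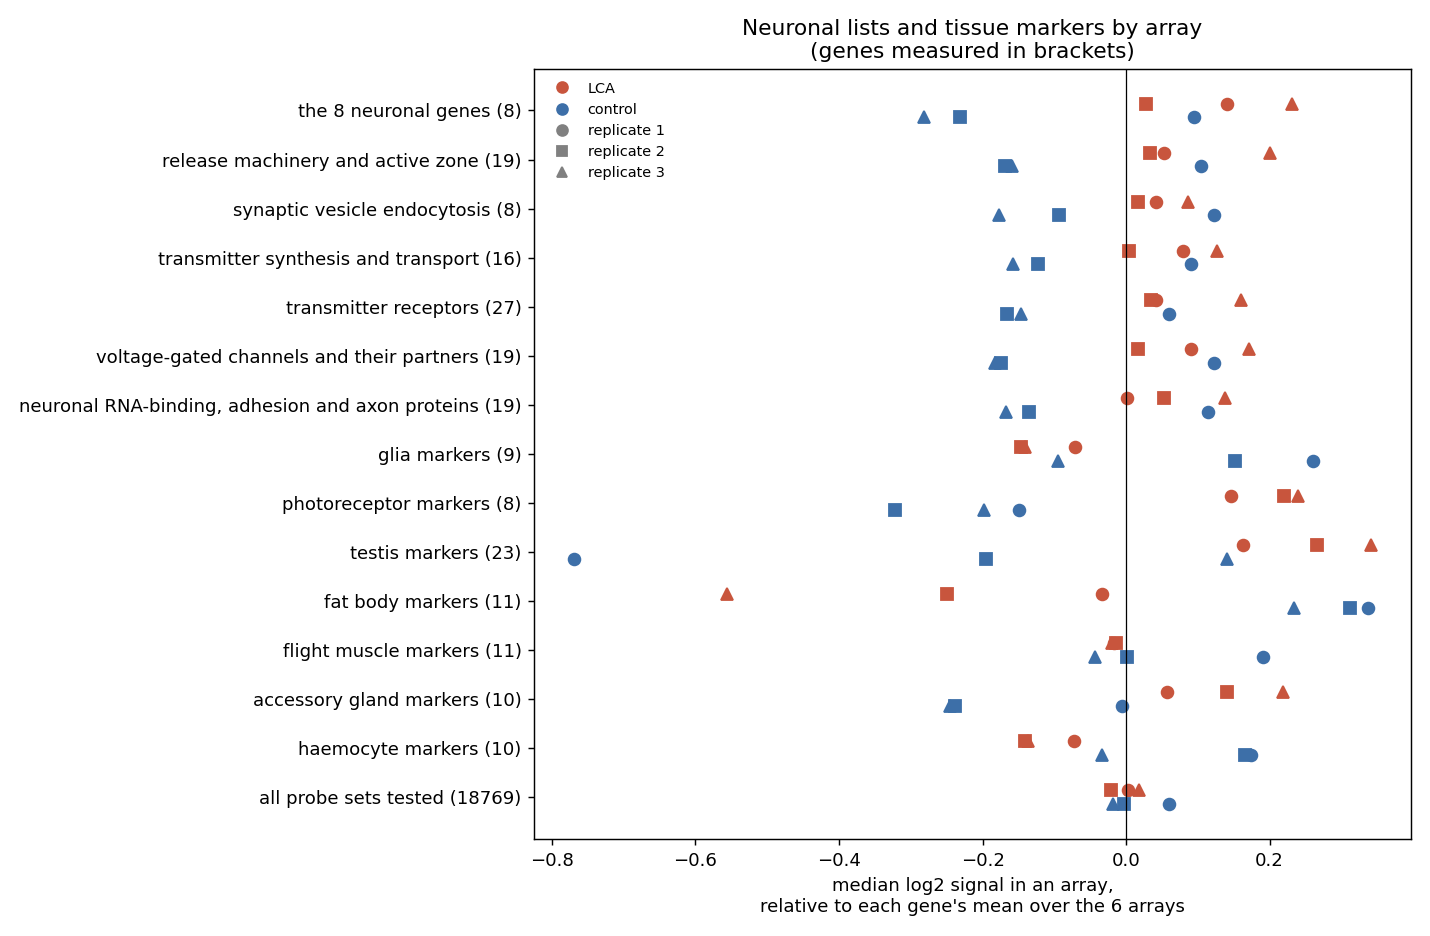
Median log2 signal of each list in each array, relative to each gene's mean over 6 arrays (horizontal axis), with LCA arrays in red above control arrays in blue and markers for the replicate. Control replicate 1 lies above the lowest LCA array in the 7 neuronal rows, but below all LCA arrays for photoreceptor markers and far below the other arrays for testis markers, at −0.77.

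The genes whose 6 values followed the mean profile of the 8 neuronal genes most closely were ncm, a splicing factor (Pearson r = 0.996 over 6 arrays), CG11099 (0.996), ths, a ligand of the FGF family (0.995), CG12672 (0.994) and Rdl, the GABA-gated chloride channel subunit (0.992). Of these only Rdl belongs to a neuronal list used here. Among 11973 genes compared, 364 had an r over 0.9, and the points share arrays and scaling. Within the set, the r of each gene with the mean of the other 7 was 0.84 to 0.98, except for VGlut at 0.52.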

How the data were processed

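Of 6 arrays the deposited table gives 18952 probe sets each. The authors' deposited values were read as log2 signal: they span 2.32 to 14.64, and natural logs of 16-bit intensities would end at 11.1. Probe summary, background correction and normalization are not given in the sources used here. Sorted values lay within 0.102 of their mean over arrays, so arrays shared a scale to within that gap. A change of most transcripts would not show. Median signals were 6.38 to 6.39 in LCA arrays and 6.31 to 6.35 in control arrays, without overlap. No detection calls were used, and no batch or scan date is given. The smallest median absolute difference between 2 arrays was 0.102, so no array is a copy of another.

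After removal of 183 control probe sets, 18769 entered one model (R 4.3.3, limma 3.58.1, lmFit and eBayes, LCA minus control, no covariate, Benjamini-Hochberg over all, threshold 0.05). The fit was tested on simulated arrays. Names came from GEO's platform annotation, updated through the gene table of assembly Release 6 plus ISO1 MT: 13646 probe sets had 1 gene (13543 found in that table), 402 several and 4721 none here. For lists, the probe set with the highest mean stands for a gene. Of each neuronal list the 3 genes with the smallest p are named, and the 5 genes most like the set. Members and lists were chosen with earlier results of these data known.

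The alternatives tried were median centring, quantile normalization, leaving out probe sets under the 25th percentile of mean signal, leaving out s_at and x_at probe sets, a trended robust prior, the replicate number as a block, each array left out and the mean of a gene's probe sets.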

Additional observations from a re-analysis of the deposited data

How the results depend on the processing

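The alternatives, leaving out each array included, gave 0 probe sets on the array, neuronal ones included, under limma's adjusted p of 0.05; the mean over a gene's probe sets was run for list medians alone. The count of neuronal probe sets higher at an unadjusted p under 0.05, 5 of 14 with all arrays, was 4 or 5 under the other settings and 1 to 7 when an array was left out. Their median log2 difference was 0.13 to 0.31 when an array was left out. The sign turned for VGlut 1640545_at under quantile normalization (0.005), and for brp 1632538_at (−0.040) and VGlut 1632620_at (−0.034) under median centring, all within their errors of 0. When an array was left out the differences ran from −0.048 to 0.046 for brp 1632538_at, from −0.064 to 0.082 for VGlut 1632620_at, from −0.12 to 0.10 for VGlut 1640545_at and from −0.071 to 0.0018 for futsch 1624600_at. The cause was not tested. The medians of the 6 other neuronal lists stayed above 0 under every alternative run, at 0.10 to 0.27. Counts at an unadjusted p under 0.05 were less stable: of the receptors 7 were higher with all arrays, 4 after quantile normalization, 3 after centring and 1 to 11 with an array left out. The labels state no pairing, and deviations of same-numbered arrays from their diet's mean correlated at 0.26, −0.02 and 0.02. Such deviations sum to 0 within a diet, so these values cannot settle whether replicate numbers pair the arrays. With the replicate block, 5 of 14 were higher at an unadjusted p under 0.05 (4 of them shared with the 5 without it), the release machinery count was 2 against 3, the channel count 3 against 2, and limma's adjusted p of nSyb was 0.169. For the block and the other settings with all arrays, the share of all probe sets at an unadjusted p under 0.05 is not given here. Not every array correlated best with its own number. With no detection calls used, whether a probe set of low signal lay above background is not known.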

Other observations

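Among the 108 other neuronal genes, Dscam1, a cell surface protein with very many isoforms that guides axons and branches, was the 1 gene lower at an unadjusted p under 0.05. It was singled out after its values were seen. Its brightest probe set read 6.91, 6.85 and 6.87 in LCA arrays, against 7.59, 6.98 and 7.18 in control arrays. The log2 difference was −0.37 ± 0.15 (SE, 3 arrays per diet; limma's adjusted p = 0.302), and the other probe set of Dscam1 was at 0.05. In the brightest probe set all LCA arrays lay below all control arrays, and control replicate 1 was the highest of the 6. Without control replicate 1, 0 of the 108 genes, Dscam1 included, were lower at an unadjusted p under 0.05, where 978 of all 11981 genes were.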
